A study of Mus musculus with 18 samples.

Results

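P2rx1, Ptgds, Rassf4 and Agt are 4 genes whose transcripts were abundant in 168FARN breast cancer cells grown alone and scarce when the same cells were grown with fibroblasts. They were picked from the measured falls of 168FARN in coculture, and were found by symbol in both count tables, 4 of 24455 genes in the table of 168FARN and 4 of 24532 in that of LLC1. Because the falls chose the genes, the levels of the cocultures against cells alone in 168FARN are given as a description and carry no test. The comparison of cocultures with and without fibroblast Prrx1 was not itself used for the choice, although its libraries were.

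The 4 genes belong to different signalling systems. P2rx1 encodes an ATP-gated cation channel of the P2X family, which opens to extracellular ATP and is best known from platelets and smooth muscle. Ptgds encodes the lipocalin-type prostaglandin D synthase, a secreted enzyme that turns the common prostaglandin precursor made by the cyclooxygenases into prostaglandin D and also carries lipophilic ligands. Rassf4 encodes an adaptor of the Ras association domain family, whose members can bind the Hippo pathway kinases Stk3 and Stk4. Agt encodes angiotensinogen, the secreted substrate from which renin and then angiotensin-converting enzyme cut the angiotensin peptides.

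Cancer cells of 2 mouse lines carrying GFP were grown as spheroids in hanging drops, alone or with fibroblasts at 3 fibroblasts per cancer cell, kept for about a week, sorted by GFP and sequenced as bulk RNA. 168FARN, a mouse breast cancer line, was grown with cancer-associated fibroblasts from mammary tumours of MMTV-PyMT mice (MMTV-CAFs), and LLC1, the Lewis lung carcinoma line, with wound healing fibroblasts from the dorsal skin of mice on day 10 after wounding. The fibroblasts carried either a control guide (sgNS, called WT) or a guide against the transcription factor gene Prrx1 delivered with CRISPR/Cas9 (sgPrrx1), so the deletion was in the fibroblasts and not in the sequenced cancer cells. Each line had 3 libraries of cells alone, 3 of WT coculture and 3 of sgPrrx1 coculture, 18 in all. The study's methods give an age range of a few months for its mice in general and none for the donors of these fibroblasts, whether the deleted fibroblasts were a pool or a clone could not be settled, and nothing says that the libraries of a group came from separate cultures, so p values measure the spread between these libraries, which may be technical.

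Libraries held 48315037 to 68933002 counts in 168FARN and 66129117 to 103997557 in LLC1. Replicates correlated at 0.990 or more in 168FARN, whereas LLC1 sgPrrx1 replicate 3 correlated with its own replicates at only 0.949 and 0.950, and LLC1 results are therefore given with and without it where it mattered. Prrx1 itself was present in the cancer cells and did not check the labels: in CPM (counts per 1e6 of the library, scaled by edgeR's TMM) it averaged 88.2 for 168FARN alone, 129 with WT and 112 with sgPrrx1 fibroblasts. Of the 8 epithelial markers examined, Epcam, Krt19 and Cldn7 were at 0 in every 168FARN library of cells alone, while Krt8 averaged 331 CPM, and in LLC1 alone the 8 together reached at most 0.262 CPM.

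The summed level of 15 fibroblast markers ranged from 294 to 296 CPM over the libraries of 168FARN alone. With WT fibroblasts it ranged from 1426 to 1530 CPM, and with sgPrrx1 fibroblasts from 433 to 444 CPM. Of the 13 tested in edgeR, 11 rose and 1 fell against cells alone with WT fibroblasts (33.4% and 30.7% of all genes), and 8 rose and 1 fell with sgPrrx1 fibroblasts (25.7% and 24.1% of all genes). With sgPrrx1 against WT fibroblasts 12 were lower and 1 was higher, against 33.1% and 26.9% of all genes. In the means of cells alone, WT and sgPrrx1 coculture, Col1a1 stood at 3.74, 161 and 10.4 CPM, Dcn at 0.275, 92.8 and 43.3 CPM, and Col3a1 at 8.20, 239 and 32.7 CPM. Postn and Thy1 were at 0 in every library of cells alone, Fap in every library of WT coculture, and Lum, Thy1 and Fap in every library of sgPrrx1 coculture.

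Markers of other cell types moved in 168FARN too. All 4 epithelial markers tested rose with WT fibroblasts in edgeR, Krt19 from 0 to 3.09 CPM, and 2 rose with sgPrrx1 fibroblasts, against 33.4% and 25.7% of all genes. With sgPrrx1 against WT fibroblasts 1 was higher and 2 were lower, against 26.9% and 33.1%. The sums of all 8 ranged from 329 to 352 CPM alone, from 373 to 400 CPM with WT and from 427 to 433 CPM with sgPrrx1 fibroblasts. Of 5 pericyte and muscle markers tested 4 rose with WT and 1 with sgPrrx1 fibroblasts, against 33.4% and 25.7% of all genes. With sgPrrx1 against WT fibroblasts 3 were lower, against 33.1% of all genes. The sums were 30.4 to 33.9, 43.9 to 46.6 and 32.8 to 34.0 CPM in the same order. Endothelial sums were 0.637 to 0.748, 5.88 to 7.06 and 4.13 to 4.72 CPM, Cdh5 averaging 0.277, 5.94 and 3.90 CPM of these, with Emcn and Cldn5 at 0 in every library. Macrophage sums were 84.7 to 90.7, 74.2 to 75.3 and 99.2 to 103 CPM, with Ptprc at 0 in every library. Of 4 macrophage markers tested, edgeR had 2 higher and 2 lower with either kind of fibroblast than alone. Over all genes 33.4% were higher and 30.7% lower with WT fibroblasts, and 25.7% and 24.1% with sgPrrx1 fibroblasts. Csf1r averaged 0.348, 1.24 and 1.39 CPM and Cd14 37.9, 44.8 and 65.2 CPM, whereas on the log2 scale Cd68 fell by 0.70 (SE 0.0665) with WT and by 0.77 (SE 0.0671) with sgPrrx1 fibroblasts, and Lyz2 by 0.86 (SE 0.0624) and 0.35 (SE 0.0614). The part of fibroblast RNA, or of any other cell type, in the levels of P2rx1, Ptgds, Rassf4 and Agt was not tested, and in sorted bulk RNA fewer cells that make a transcript and less of it per cell cannot be told apart.

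The promoter sequences of the 4 genes are shown because the transcripts fell in the same libraries. Each is the 250 bases before the transcription start in RefSeq on GRCm38.p6, read 5′ to 3′ on the strand of the gene. Capitals mark the matches to 5 motifs, searched on both strands and without overlap among the matches, namely the homeodomain core, the Smad box, the AP-1 site, the TATA box and the GC box, whose letters are given after the sequences.
P2rx1, chr11:72998895-72999144, plus strand: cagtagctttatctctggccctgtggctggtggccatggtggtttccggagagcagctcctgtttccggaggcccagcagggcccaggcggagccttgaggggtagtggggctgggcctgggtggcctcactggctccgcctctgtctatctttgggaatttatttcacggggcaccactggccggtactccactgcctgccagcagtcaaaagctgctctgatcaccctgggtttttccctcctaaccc
Ptgds, chr2:25469750-25469999, minus strand: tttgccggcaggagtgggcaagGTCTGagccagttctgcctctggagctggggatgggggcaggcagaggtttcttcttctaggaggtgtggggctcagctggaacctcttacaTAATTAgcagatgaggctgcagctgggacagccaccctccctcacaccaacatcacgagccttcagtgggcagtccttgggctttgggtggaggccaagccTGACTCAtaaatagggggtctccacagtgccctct
Rassf4, chr6:116673837-116674086, minus strand: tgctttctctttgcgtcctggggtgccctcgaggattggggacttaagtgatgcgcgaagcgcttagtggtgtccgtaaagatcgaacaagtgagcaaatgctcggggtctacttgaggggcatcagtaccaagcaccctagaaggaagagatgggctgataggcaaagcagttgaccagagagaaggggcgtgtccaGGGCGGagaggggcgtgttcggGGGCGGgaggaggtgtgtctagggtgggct
Agt, chr8:124569707-124569956, minus strand: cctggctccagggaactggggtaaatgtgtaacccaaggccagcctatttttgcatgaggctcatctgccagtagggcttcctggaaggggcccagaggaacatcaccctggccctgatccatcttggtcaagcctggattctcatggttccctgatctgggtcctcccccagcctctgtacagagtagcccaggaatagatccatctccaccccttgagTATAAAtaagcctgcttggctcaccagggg

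No motif of the 5 was found in all 4 promoters, and none of the 5 was found in more than 1. The Ptgds promoter held the homeodomain core TAATTA 136 bases before the start, the Smad box as GTCTG 228 bases before it and the AP-1 site as TGACTCA 35 bases before it. The Agt promoter held the TATA box TATAAA 30 bases before the start, and the Rassf4 promoter held the GC box GGGCGG at 52 and at 30 bases before it. The P2rx1 promoter held none of these letters. Over all 32851 mouse promoters of the same length, the homeodomain core was found in 4.84%, the Smad box CAGAC in 42.2%, the AP-1 site TGANTCA in 6.75%, the TATA box in 12.4% and the GC box in 32.7%. The E-box CANNTG, left in lower case, was found in 66.2% of all promoters and lay 3 times in that of Ptgds, 3 times in that of Rassf4, once in that of Agt and nowhere in that of P2rx1. GC content was 61.2% for P2rx1, 58.4% for Ptgds, 58.0% for Rassf4 and 55.6% for Agt, against a median of 52.4%. The whole window of Ptgds and 89 bases of that of P2rx1 lie inside the annotated span of their own gene, since other transcripts of these genes start further upstream.

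**Figure D1:**
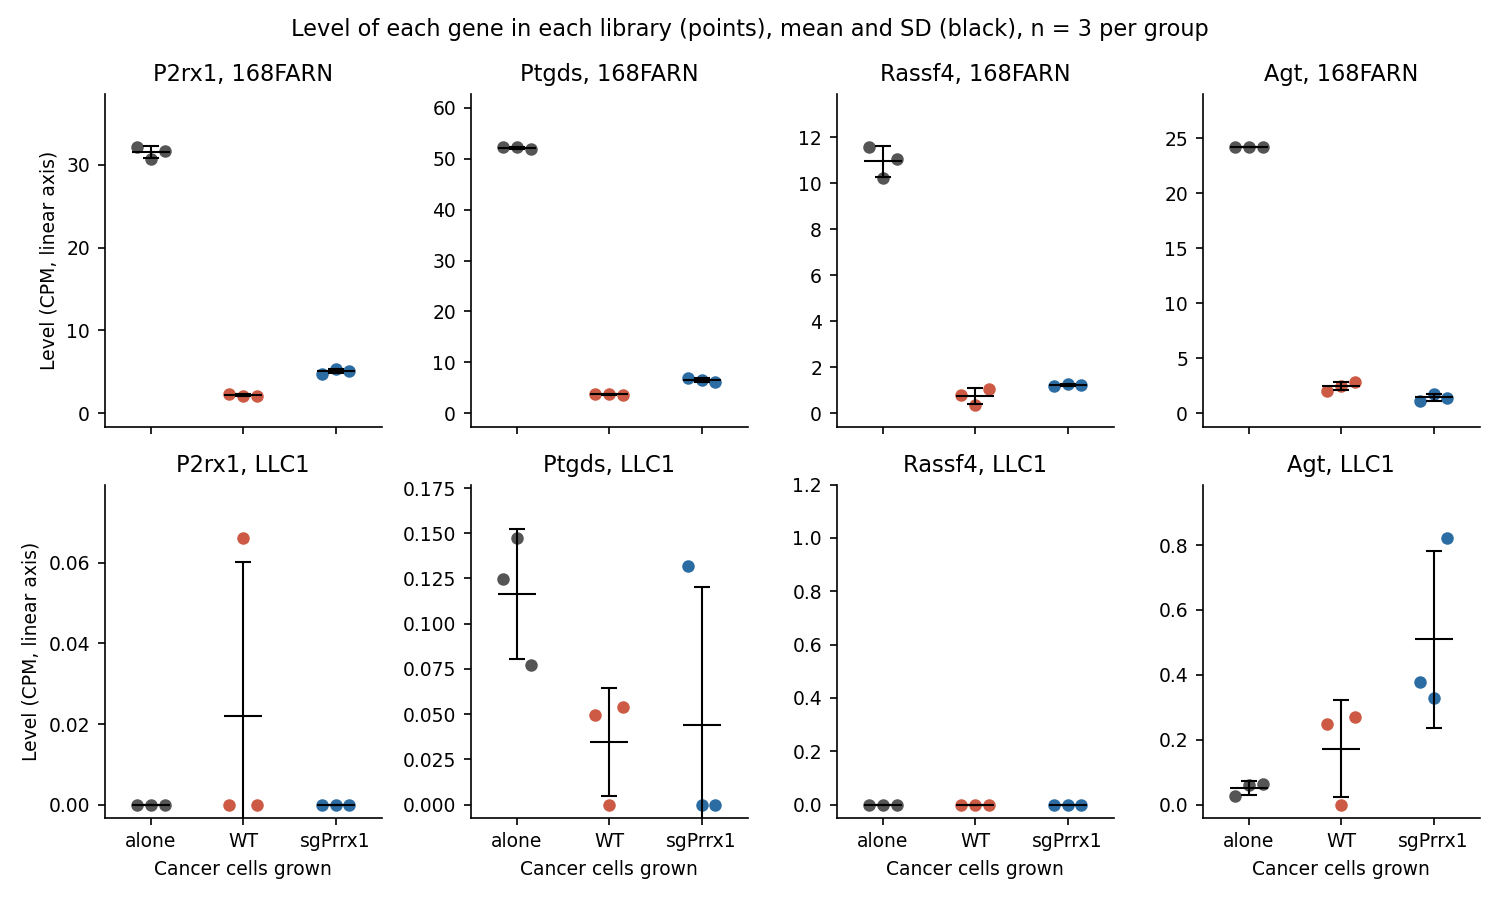
Level of P2rx1, Ptgds, Rassf4 and Agt in each library, as CPM on linear axes that include 0 and differ between panels, with 168FARN above and LLC1 below; points are libraries, and black lines show the mean and SD of 3. In 168FARN all cells-alone libraries lie far above all coculture libraries for each gene, and in LLC1 the same genes are at or near 0 in every group.

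P2rx1 lies on chromosome 11 from 72999056 to 73015200 on the plus strand. In 168FARN alone its 3 libraries held 32.2, 30.7 and 31.7 CPM. In WT coculture they held 2.29, 2.15 and 2.11 CPM, and in sgPrrx1 coculture 4.80, 5.30 and 5.09 CPM. The lowest library of cells alone was 5.80-fold above the highest coculture library. Its mean fell from 31.6 ± 0.741 CPM to 2.18 ± 0.0937 CPM with WT and to 5.06 ± 0.253 CPM with sgPrrx1 fibroblasts (SD, n = 3 each), which left 6.92% and 16.1% of the transcript. The log2 fold changes against cells alone were -3.85 (SE 0.0605) in WT and -2.64 (SE 0.0551) in sgPrrx1 coculture.

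Ptgds lies on chromosome 2 from 25466709 to 25470110 on the minus strand. Its libraries of cells alone held 52.3, 52.2 and 52.0 CPM, almost the same level in each. WT coculture left 3.88, 3.71 and 3.51 CPM, and sgPrrx1 coculture 6.97, 6.59 and 6.19 CPM. No coculture library came near the level of cells alone, the smallest gap being 7.46-fold. Means of 52.2 ± 0.185 CPM alone, 3.70 ± 0.184 CPM in WT and 6.58 ± 0.386 CPM in sgPrrx1 coculture (SD, n = 3 each) left 7.09% and 12.6% of the transcript. The log2 fold changes were -3.81 (SE 0.0524) and -2.99 (SE 0.0495).

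Rassf4 lies on chromosome 6 from 116633008 to 116673836 on the minus strand. Its libraries of cells alone held 11.6, 10.2 and 11.1 CPM. In WT coculture they held 0.782, 0.380 and 1.08 CPM, the widest relative spread of the 4 genes in that group, from 55, 26 and 53 counts. In sgPrrx1 coculture they held 1.17, 1.27 and 1.22 CPM. The groups in coculture thus lay close to each other and 8.07-fold or more below cells alone, with 6.80% of the mean level left in WT and 11.1% in sgPrrx1 coculture. The log2 fold changes were -3.92 (SE 0.228) and -3.16 (SE 0.214).

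Depp1, a protein-coding gene on the opposite strand from 116650684 to 116652847, lies inside Rassf4. Whether counting used strand is not stated, so reads in the shared stretch cannot be assigned to either gene with certainty. Depp1 held 141, 163 and 103 counts in cells alone, 29, 28 and 20 in WT coculture and 56, 29 and 58 in sgPrrx1 coculture. Its levels fell in the same groups, with log2 fold changes of -2.62 (SE 0.291) in WT and -1.53 (SE 0.269) in sgPrrx1 coculture. With sgPrrx1 against WT fibroblasts Depp1 was higher by 1.08 (SE 0.316, adjusted p of 0.0118 in edgeR), the same direction as the value of Rassf4 given further on. Its part in the Rassf4 counts was not tested.

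Agt lies on chromosome 8 from 124556587 to 124569706 on the minus strand. Its libraries of cells alone agreed closely, at 24.2, 24.2 and 24.2 CPM. WT coculture left 2.06, 2.53 and 2.82 CPM, and sgPrrx1 coculture 1.15, 1.75 and 1.42 CPM. Unlike the other three, Agt had its lowest libraries with sgPrrx1 fibroblasts, and the gap from cells alone to the highest coculture library was 8.57-fold. The mean level left was 10.2% in WT and 5.96% in sgPrrx1 coculture. The log2 fold changes were -3.30 (SE 0.119) and -4.05 (SE 0.129).

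All 4 genes were lower without overlap in both cocultures, which is what chose them. By edgeR's quasi-likelihood test at an adjusted p of 0.05, of the 13540 genes tested in 168FARN 30.7% had lower and 33.4% had higher levels with WT fibroblasts than alone, and the groups did not overlap for 68.3%. In sgPrrx1 coculture 24.1% were lower and 25.7% higher than alone, and 59.4% did not overlap. Falls of this size were rarer: 83 genes (0.613%) had a log2 fold change below -2 in WT coculture, 79 (0.584%) in sgPrrx1 coculture and 32 in both. Of those 32, 11 had a mean of at least 100 counts, the 4 genes among them.

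Among the 3755 genes that fell in WT coculture past the threshold, with at least 100 counts on average and without overlap, Rassf4, P2rx1 and Ptgds stood at ranks 1, 2 and 3. Vnn3 (-3.79), a vanin family member, and Crocc2 (-3.54), a relative of the ciliary rootlet protein, stood between them and Agt at rank 6, and Akr1c14 (-3.03), an aldo-keto reductase, followed. With sgPrrx1 fibroblasts the order changed among 3028 such genes. Lama4 (-5.08), a laminin chain, led, Agt stood at rank 2 and Rassf4 at rank 3, ahead of Hsd11b1 (-3.13), the enzyme that regenerates active glucocorticoid. Ptgds stood at rank 8, after Crocc2 (-2.99) and before the matricellular gene Sparcl1 (-2.66), and P2rx1 stood at rank 10, before the peroxisomal oxidase gene Acox2 (-2.51).

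**Figure D2:**
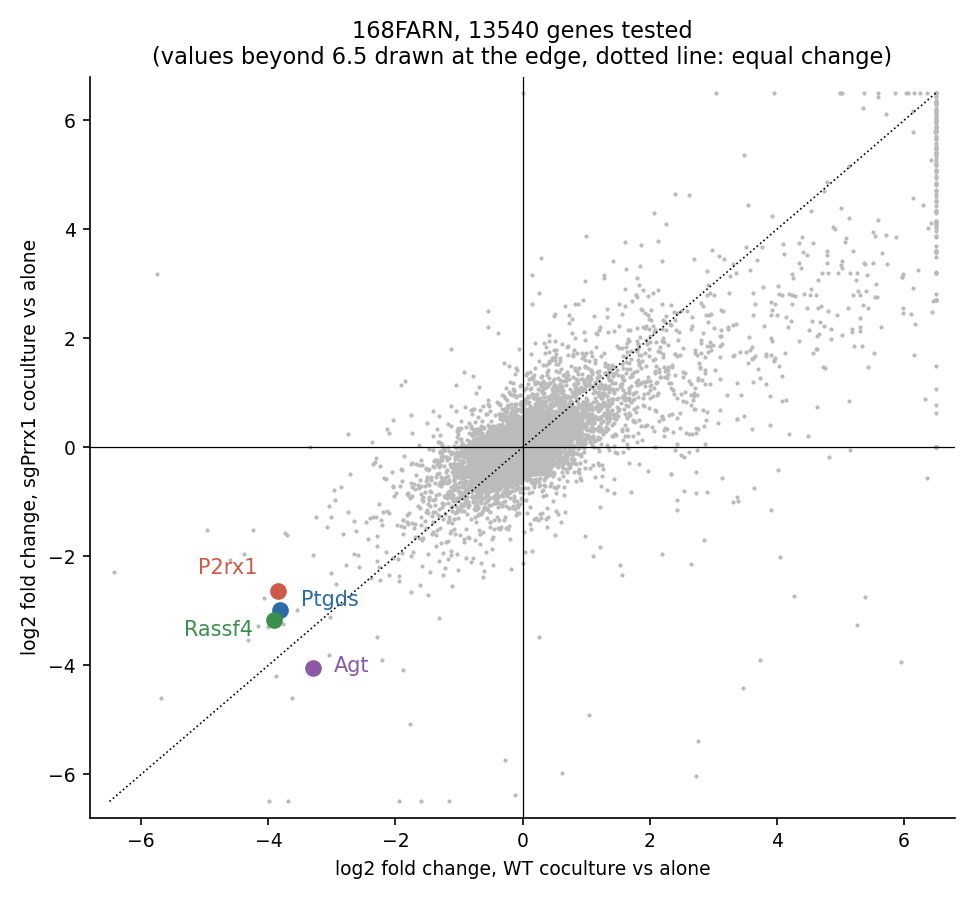
Log2 fold change of each of 13540 genes tested in 168FARN, WT coculture against alone on the horizontal axis and sgPrrx1 coculture against alone on the vertical axis, with values beyond 6.5 drawn at the edge; the cells-alone libraries are shared by both axes. P2rx1, Ptgds and Rassf4 lie above the dotted line of equal change and Agt lies below it.

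To ask whether the loss needed Prrx1 in the fibroblasts, sgPrrx1 coculture was compared with WT coculture in 168FARN. P2rx1, Ptgds and Rassf4 were higher and Agt was lower with sgPrrx1 fibroblasts, and the groups did not overlap for any of the 4, as for 66.2% of all genes tested. By edgeR's quasi-likelihood test 26.9% of genes were higher and 33.1% lower in this comparison, so calls were common throughout. These values share their WT and sgPrrx1 libraries with the choice of the genes and are read with that limit.

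P2rx1 was 2.32-fold higher with sgPrrx1 fibroblasts, a log2 fold change of 1.21 (SE 0.0665, 95% interval 1.07 to 1.36) with an adjusted p of 8.78e-08 in edgeR. Ptgds was 1.78-fold higher, a log2 fold change of 0.82 (SE 0.0574, 95% interval 0.70 to 0.95) with an adjusted p of 4.76e-07 in edgeR. The 3 sgPrrx1 libraries of each gene lay above the 3 WT libraries. Rassf4 was 1.64-fold higher, at 0.76 on the log2 scale (SE 0.267, 95% interval 0.17 to 1.35), and its adjusted p of 0.0300 in edgeR was near the threshold. The Rassf4 call rested on single libraries: without WT replicate 1, WT replicate 2 or any 1 of the sgPrrx1 replicates the adjusted p in edgeR was 0.0506 to 0.0738, and with only the 2 cocultures fitted it was 0.0787. Without WT replicate 2, the lowest library, the log2 fold change was 0.42. In the other fits that lost the call it was 0.72 to 0.82. Without WT replicate 3 it was 1.07, with an adjusted p of 0.00386 in edgeR.

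Agt went the other way. It was 1.71-fold lower with sgPrrx1 than with WT fibroblasts, a log2 fold change of -0.75 (SE 0.149, 95% interval -1.08 to -0.42) with an adjusted p of 0.00120 in edgeR. Each of its 3 sgPrrx1 libraries lay below each WT library.

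The genes were chosen for large falls, which largely sets how these differences compare with them, so the shares that follow are a description. Of the fall from cells alone to WT coculture, the mean level of P2rx1 regained 9.81% with sgPrrx1 fibroblasts, that of Ptgds 5.95% and that of Rassf4 4.63%, and for Agt the figure was -4.73%, a further fall. On the log2 scale the shares were larger, at 31.5% for P2rx1, 21.6% for Ptgds, 19.3% for Rassf4 and -22.6% for Agt. In sgPrrx1 coculture P2rx1 lay 6.23-fold below cells alone, Ptgds 7.92-fold, Rassf4 9.0-fold and Agt 16.8-fold. The fibroblast markers moved with the same comparison, as given above, and their part in these differences was not tested.

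The 7 other genes with at least 100 counts on average that lay below -2 in both cocultures were compared in the same way. In edgeR 3 were higher with sgPrrx1 fibroblasts and the other 4 did not pass, against 26.9% higher and 33.1% lower over all genes. Over all 32 genes below -2 in both, the 4 genes and those of low counts included, 7 were higher and 3 lower, the latter being Agt, Fmo1 (-4.93, SE 1.23) and Selenbp1 (-1.18, SE 0.265). Vnn3 was higher by 0.69 (SE 0.128) on the log2 scale, Crocc2 by 0.55 (SE 0.170) and Acox2 by 0.42 (SE 0.167), whereas Akr1c14 was at -0.08 (SE 0.191, adjusted p of 0.764 in edgeR).

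**Figure D3:**
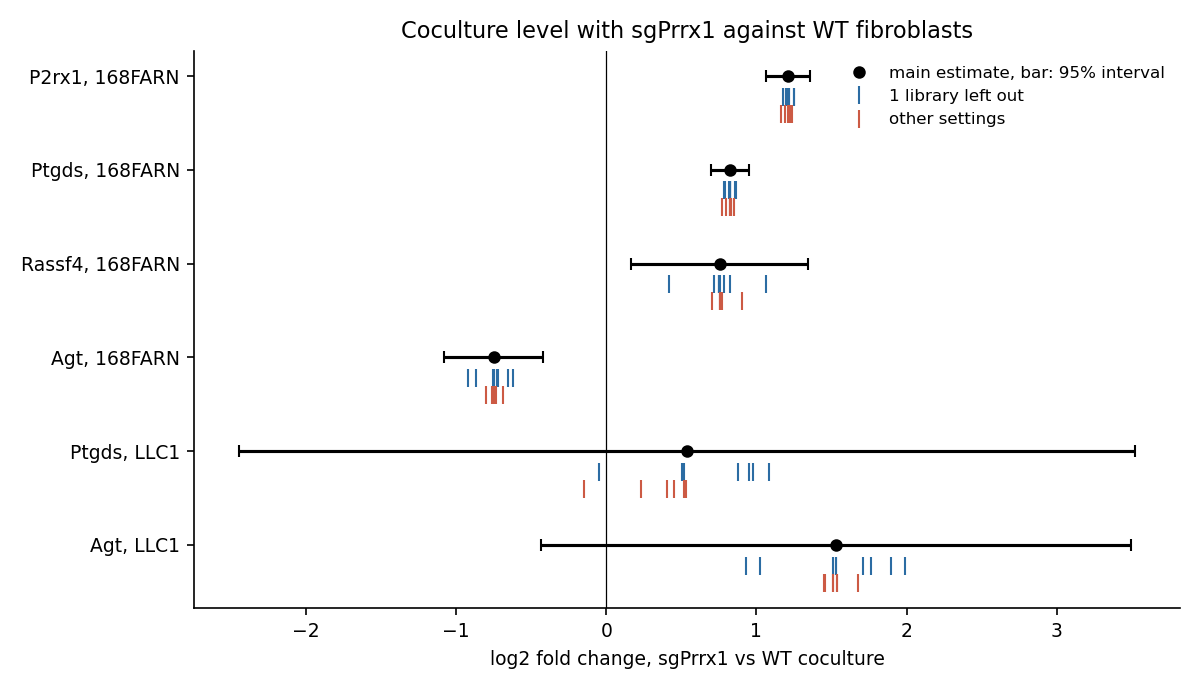
Log2 fold change of sgPrrx1 against WT coculture for the 4 genes in 168FARN and for Ptgds and Agt in LLC1; black points and bars are the main estimate with its 95% interval, blue ticks leave out 1 library and red ticks are other settings. In 168FARN every estimate keeps its side of 0, while the LLC1 intervals cross 0.

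The LLC1 libraries took no part in the choice of the genes, and they held few of the transcripts. Rassf4 had 0 counts in all 9 libraries. A count of 0 allows up to 3 counts, which is 0.0283 to 0.0514 CPM in these libraries, counting error only. P2rx1 had 5 counts in WT replicate 2 and 0 in the other 8 libraries. Neither gene passed the filter on low counts, so neither could be tested, and whether fibroblasts lower them could not be asked in LLC1.

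Ptgds, at the edge of the filter, had 10, 12 and 6 counts in LLC1 alone, 4, 0 and 4 in WT coculture and 14, 0 and 0 in sgPrrx1 coculture. The WT libraries lay below those of cells alone, while 1 sgPrrx1 library lay inside their range and the other two were at 0. The log2 fold changes were -1.71 (SE 1.21) for WT against alone, -1.17 (SE 1.12) for sgPrrx1 against alone and 0.54 (SE 1.30, 95% interval -2.44 to 3.52) for sgPrrx1 against WT, and the adjusted p values in edgeR were 0.447, 0.540 and 0.878. The interval of the last comparison holds both the value of 168FARN and 0. Its direction turned with limma voom and sample quality weights (-0.14) and without LLC1 WT replicate 2 (-0.047). Without LLC1 sgPrrx1 replicate 3 the value was 0.98, and that of sgPrrx1 against alone was -0.72.

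Agt had 2, 5 and 5 counts in LLC1 alone, 20, 0 and 20 in WT coculture and 40, 28 and 48 in sgPrrx1 coculture. As levels these were 0.0250, 0.0614 and 0.0642 CPM alone, 0.248, 0 and 0.269 CPM in WT and 0.377, 0.329 and 0.822 CPM in sgPrrx1 coculture. Every sgPrrx1 library lay above every other library, the opposite order to that of 168FARN. Over all genes tested in LLC1, sgPrrx1 libraries did not overlap those of cells alone for 32.4% and those of WT coculture for 23.6%, in either direction. Only the sgPrrx1 libraries, where it was high, brought Agt to the 3 libraries that the low-count filter asked for, so its test in LLC1 is not independent of that rise. Of 11 fibroblast markers tested in LLC1, 4 rose and 2 fell with WT fibroblasts in edgeR, against 4.25% and 4.58% of all genes. With sgPrrx1 fibroblasts 3 rose and 1 fell, against 2.01% and 2.31%. For sgPrrx1 against WT 0 were higher and 3 lower, against 0% and 0.0544% of all genes. The sums of all 15 were 1885 to 1979 CPM alone, 1428 to 1462 CPM with WT and 1780 to 1858 CPM with sgPrrx1 fibroblasts. Means of Dcn were 2.85, 30.1 and 21.4 CPM in that order, those of Fbln2 0.0331, 6.08 and 0.655 CPM, and those of the macrophage marker Cd68 16.2, 36.6 and 46.0 CPM. The last of these rests on LLC1 sgPrrx1 replicate 3, at 63.6 CPM of Cd68 against 38.5 and 36.0 CPM in the other sgPrrx1 libraries and 35.9 to 37.7 CPM in the WT libraries. Thy1 and Fap were at 0 in every sgPrrx1 library, and macrophage sums were 26.8 to 29.2, 49.5 to 52.9 and 53.0 to 90.4 CPM. The part of RNA of these cell types in the Agt counts was not tested. The log2 fold change of sgPrrx1 coculture against alone was 3.28 (SE 0.987, 95% interval 1.02 to 5.54), with an adjusted p of 0.101 in edgeR that missed the threshold. It passed with DESeq2 (adjusted p of 0.0128), with limma voom and sample quality weights (adjusted p of 0.0361) and in edgeR without LLC1 WT replicate 2 (adjusted p of 0.0459). Without LLC1 sgPrrx1 replicate 3 the log2 fold change was 2.79 (adjusted p of 0.0677 in edgeR), and with the replicate block, since the numbers paired these libraries, it was 3.23 (adjusted p of 0.105 in edgeR). WT against alone gave 1.75 (SE 1.03, adjusted p of 0.349 in edgeR) and sgPrrx1 against WT 1.53 (SE 0.858, adjusted p of 0.505 in edgeR). The last value rests on the WT library without a count of Agt, LLC1 WT replicate 2, without which it was 0.93 (adjusted p of 0.701 in edgeR), and without LLC1 sgPrrx1 replicate 3 it was 1.02.

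In all, 0 of the 2 genes tested in LLC1 passed in any of the 3 comparisons in edgeR. At an unadjusted p of 0.05, 1 gene passed for sgPrrx1 against alone, which was Agt, and 0 for each of the others, and DESeq2 called the same numbers at its adjusted p. Over the 12873 genes tested in LLC1 with edgeR, 4.25% rose and 4.58% fell with WT fibroblasts, with 53.2% not overlapping, and 2.01% rose and 2.31% fell with sgPrrx1 fibroblasts, with 32.4% not overlapping. For sgPrrx1 against WT 0% were higher and 0.0544% lower, with 23.6% not overlapping, 1545 genes in either direction at an unadjusted p of 0.05 and 501 called by DESeq2, 255 of them higher. These shares depend on LLC1 sgPrrx1 replicate 3. Without it 5779 genes in place of 1137 passed for WT against alone, 3495 in place of 556 for sgPrrx1 against alone and 745 in place of 7 for sgPrrx1 against WT, with edgeR, and 0 of Ptgds and Agt passed.

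The difference between the lines in sgPrrx1 against WT was tested as an interaction in a joint edgeR fit of the 18 libraries. For Agt the log2 fold change was 2.23 lower in 168FARN than in LLC1, that is -2.23 (SE 0.680) with an adjusted p of 0.0310 in edgeR. The value rests on the 0 to 48 counts of Agt in each LLC1 library. The filter of the joint fit covered all 18 libraries, and Agt did not need its LLC1 counts to meet it. A difference is given only for genes past the filter in LLC1, which Agt met only through its sgPrrx1 libraries. Giving it is therefore not independent of the rise in them. The 168FARN libraries in the fit also took part in the choice of the genes. The difference for Agt was -1.75 (adjusted p of 0.0251 in edgeR) without LLC1 sgPrrx1 replicate 3. It was -1.66 (adjusted p of 0.0189 in edgeR) without LLC1 WT replicate 2, a setting chosen after seeing the data. For Ptgds the difference was 0.21 (SE 1.16, adjusted p of 0.980 in edgeR), and it was -0.18 without LLC1 sgPrrx1 replicate 3 and 0.77 without LLC1 WT replicate 2. P2rx1 and Rassf4 did not pass the filter in LLC1, so no difference between lines is given for them. Fibroblast types, cancer lines and tables differed together, so a line and its fibroblasts cannot be told apart.

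The genes nearest to each of the 4 in their pattern over the 9 libraries of 168FARN were found among 10876 genes with at least 100 counts on average, by the root mean square difference of log2 CPM centred per gene. These libraries chose the 4 genes, so likeness among them is a description. For P2rx1 the nearest was Ptgds at 0.18, then Vnn3 at 0.28 and Crocc2 at 0.35. For Ptgds the order was Vnn3 (0.17), P2rx1 (0.18) and Crocc2 (0.25), and for Rassf4 it was Vnn3 (0.29), Ptgds (0.37) and P2rx1 (0.41). Agt stood apart from the other three, nearest to Akr1c14 (0.43), then Vnn3 (0.62) and Crocc2 (0.64), with Ptgds at rank 5 (0.70), Rassf4 at rank 8 (0.74) and P2rx1 at rank 12 (0.85). Vnn3 averaged 15.0, 1.10 and 1.76 CPM in cells alone, WT and sgPrrx1 coculture. Akr1c14 averaged 4.98, 0.609 and 0.572 CPM.

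The 2 nearest tested genes on each side of the 4 were examined in 168FARN, 16 neighbours in all. In edgeR 6 fell, 3 rose and 7 did not pass with WT fibroblasts, and 10 fell, 1 rose and 5 did not pass with sgPrrx1 fibroblasts, to be read against the shares of all genes given above. Atp2a3, a calcium pump gene 6.01 kb from P2rx1, had 4.71, 4.72 and 5.87 CPM in the libraries of cells alone, 2.61, 2.26 and 1.93 CPM with WT and 3.13, 3.28 and 3.35 CPM with sgPrrx1 fibroblasts. Its log2 fold changes were -1.16 (SE 0.137, adjusted p of 2.21e-05 in edgeR) and -0.64 (SE 0.134, adjusted p of 0.00216 in edgeR). Camkk1, 0.842 kb from P2rx1 on the other side, was at 0.28 (SE 0.0642) in WT and -0.09 (SE 0.0654) in sgPrrx1 coculture.

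Next to Agt, the calpain gene Capn9, 6.36 kb away, had 30, 46 and 41 counts alone, 13, 7 and 0 in WT and 6, 5 and 16 in sgPrrx1 coculture. It fell by 2.78 (SE 0.608, adjusted p of 0.00197 in edgeR) and by 2.16 (SE 0.582, adjusted p of 0.00996 in edgeR) on the log2 scale. On the other side Cog2, a Golgi complex subunit gene 4.58 kb away, fell by 0.50 (SE 0.0384) and by 0.24 (SE 0.0383). The neighbours of Ptgds ran from -0.92 for Fut7 to -0.07 for Fbxw5 in WT coculture, and those of Rassf4 from -0.13 for Zfp637 to 1.66 (SE 0.0534) for the chemokine gene Cxcl12, which lies 495 kb away. In sgPrrx1 coculture those of Ptgds ran from -1.005 for C8g to -0.32 for Fbxw5. Those of Rassf4 ran from -0.33 for Zfp422 to 0.17 for Zfand4, with Cxcl12 at -0.01 (SE 0.0562). None of the 16 neighbours had a log2 fold change as low as that of its own member in either coculture.

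**Figure D4:**
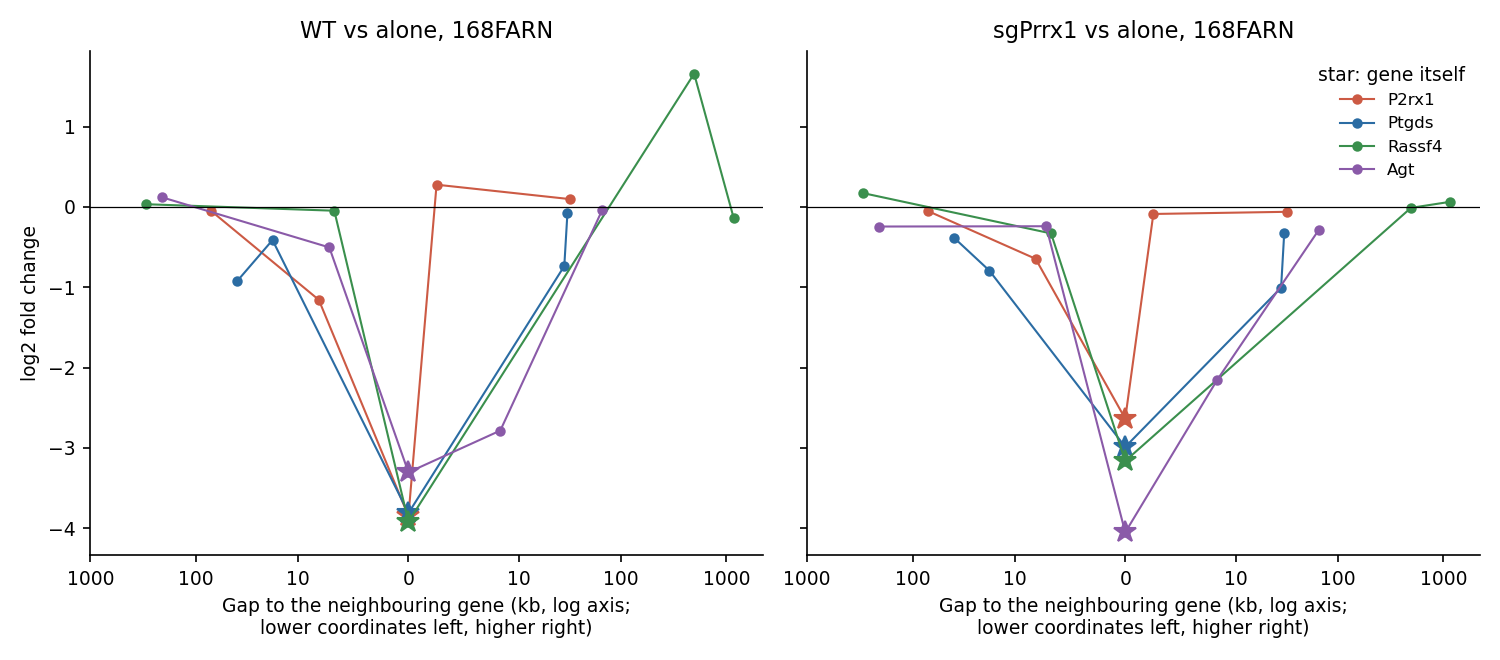
Log2 fold change in 168FARN of P2rx1, Ptgds, Rassf4 and Agt (stars) and of the 2 nearest tested genes on each side (points), WT coculture against alone on the left and sgPrrx1 coculture against alone on the right, with the gap in kb on a log axis. The stars lie lowest in both panels, and Capn9 beside Agt is the neighbour closest to its star.

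The other genes of each pathway were counted from lists chosen with earlier results of these data known. In the purinergic list, 9 of 19 other genes were tested in 168FARN with a median log2 fold change of 0.62 in WT coculture, against 0.01 over all genes. In edgeR 6 rose and 1 fell with WT fibroblasts, against 33.4% and 30.7% of all genes, and 4 rose and 1 fell with sgPrrx1 fibroblasts, against 25.7% and 24.1%. Among the P2X receptors, P2rx4 had 64.1, 64.6 and 62.1 CPM in cells alone, 34.3, 36.0 and 34.5 CPM with WT and 31.6, 30.9 and 32.8 CPM with sgPrrx1 fibroblasts, a log2 fold change of -0.87 (SE 0.0325) and -1.0 (SE 0.0329) that passed in both. P2rx3 rose in both, by 0.62 (SE 0.0743) and 0.99 (SE 0.0739), and P2rx6 rose in WT coculture by 0.62 (SE 0.125). P2rx7 was at 0.01 (SE 0.0739) and -0.13 (SE 0.0749), P2rx5 held 8 to 23 counts per library, and P2rx2 had 3 counts in 1 library and 0 in the others.

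Of the 9, Nt5e rose most, the ecto-nucleotidase that makes adenosine from AMP. Nt5e held 20.2, 18.9 and 19.5 CPM alone, 104, 105 and 101 CPM in WT and 66.6, 63.0 and 61.8 CPM in sgPrrx1 coculture. P2ry6, a receptor for UDP, averaged 4.44, 15.3 and 7.41 CPM in the same order. Both were lower with sgPrrx1 than with WT fibroblasts, Nt5e by -0.69 (SE 0.0363, adjusted p of 6.65e-08 in edgeR) and P2ry6 by -1.05 (SE 0.0819, adjusted p of 1.15e-06 in edgeR), the opposite direction to P2rx1. In this comparison 1 gene of the list was higher and 6 were lower, against 26.9% and 33.1% of all genes.

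In the prostaglandin list, 16 of 23 other genes were tested in 168FARN. In edgeR 5 rose and 6 fell with WT fibroblasts, with a median log2 fold change of -0.02, and 6 were higher and 4 lower in sgPrrx1 coculture. Of all genes 33.4% rose and 30.7% fell with WT and 25.7% and 24.1% with sgPrrx1 fibroblasts. The cyclooxygenase Ptgs2 held 825, 826 and 830 CPM alone, 1086, 1101 and 1094 CPM in WT and 1355, 1340 and 1322 CPM in sgPrrx1 coculture, so it rose by 0.40 (SE 0.0148) and 0.70 (SE 0.0149) on the log2 scale. Ptgs1, the other cyclooxygenase, was at -0.25 (SE 0.0324, adjusted p of 4.47e-05 in edgeR) and 0.08 (SE 0.0324, adjusted p of 0.0643 in edgeR). Ptges, a prostaglandin E synthase, was at 0.04 (SE 0.0255, adjusted p of 0.146 in edgeR) in WT coculture and rose by 0.22 (SE 0.0255) in sgPrrx1 coculture. None of the 3 enzymes fell as Ptgds did.

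The haematopoietic prostaglandin D synthase Hpgds had at most 4 counts in a 168FARN library, and the prostaglandin D receptors were as scarce, with 0 counts of Ptgdr in every library and at most 5 of Ptgdr2. Ptgfr, the prostaglandin F receptor, was at 0 in cells alone and reached 0.426 to 0.597 CPM with WT and 1.25 to 1.42 CPM with sgPrrx1 fibroblasts. Ptgr1, a prostaglandin reductase, was 0.85 (SE 0.0284) higher on the log2 scale with sgPrrx1 than with WT fibroblasts, with an adjusted p of 2.79e-09 in edgeR. For sgPrrx1 against WT 8 genes of the list were higher and 3 lower, with a median of 0.22, against 26.9% and 33.1% of all genes.

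In the Rassf and Hippo list, 14 of 16 other genes were tested. In edgeR 11 rose and 2 fell with WT fibroblasts, with a median of 0.22, and 8 rose while 6 did not pass with sgPrrx1 fibroblasts, against 33.4% and 30.7% of all genes with WT and 25.7% and 24.1% with sgPrrx1 fibroblasts. Rassf6 was one of the 2 lower, at 36, 30 and 19 counts alone, 2, 8 and 10 in WT and 20, 9 and 13 in sgPrrx1 coculture, a log2 fold change of -2.26 (SE 0.582, adjusted p of 0.00545 in edgeR) in WT and -1.04 (SE 0.523, adjusted p of 0.123 in edgeR) in sgPrrx1 coculture. Most other Rassf genes rose in WT coculture, among them Rassf1 by 0.48 (SE 0.0334), Rassf2 by 1.67 (SE 0.206), Rassf5 by 0.76 (SE 0.0433) and Rassf8 by 0.65 (SE 0.0349). Rassf3 rose by 0.21 (SE 0.0432), Rassf7 was at -0.07 (SE 0.0469), and Rassf9 and Rassf10 had 0 counts. Of the kinases that these adaptors bind, Stk3 rose by 0.43 (SE 0.0418) and Stk4 by 0.10 (SE 0.0357) in WT coculture, while in sgPrrx1 coculture they were at 0.07 (SE 0.0420) and 0.01 (SE 0.0358). For sgPrrx1 against WT 3 genes of the list were higher and 5 lower, against 26.9% and 33.1% of all genes.

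In the renin-angiotensin list, 6 of 15 other genes were tested. In edgeR 2 rose and 3 fell with WT fibroblasts, with a median of -0.20, and 2 were higher and 4 lower in sgPrrx1 coculture. Over all genes 33.4% rose and 30.7% fell with WT and 25.7% and 24.1% with sgPrrx1 fibroblasts. Renin itself was not detected, with 0 counts of Ren1 in every library of both lines, and of the angiotensin II receptors Agtr1b and Agtr2 had 0 counts in 168FARN and Agtr1a had 2 in 1 library. Ace, the angiotensin-converting enzyme, was low, with 0, 14 and 6 counts alone, 70, 53 and 44 in WT and 37, 54 and 34 in sgPrrx1 coculture, and rose by 2.85 (SE 0.527, adjusted p of 0.000642 in edgeR) and 2.6 (SE 0.539, adjusted p of 0.00210 in edgeR). Anpep, an aminopeptidase that trims angiotensin peptides, rose by 1.59 (SE 0.168) and 0.96 (SE 0.174). Atp6ap2, the prorenin receptor, fell by 0.84 (SE 0.0309) and by 0.43 (SE 0.0307), and Ctsd, a lysosomal aspartic protease, fell by 0.47 (SE 0.0208) and by 0.41 (SE 0.0208). For sgPrrx1 against WT 2 genes were higher and 2 lower, again against 26.9% and 33.1%.

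**Figure D5:**
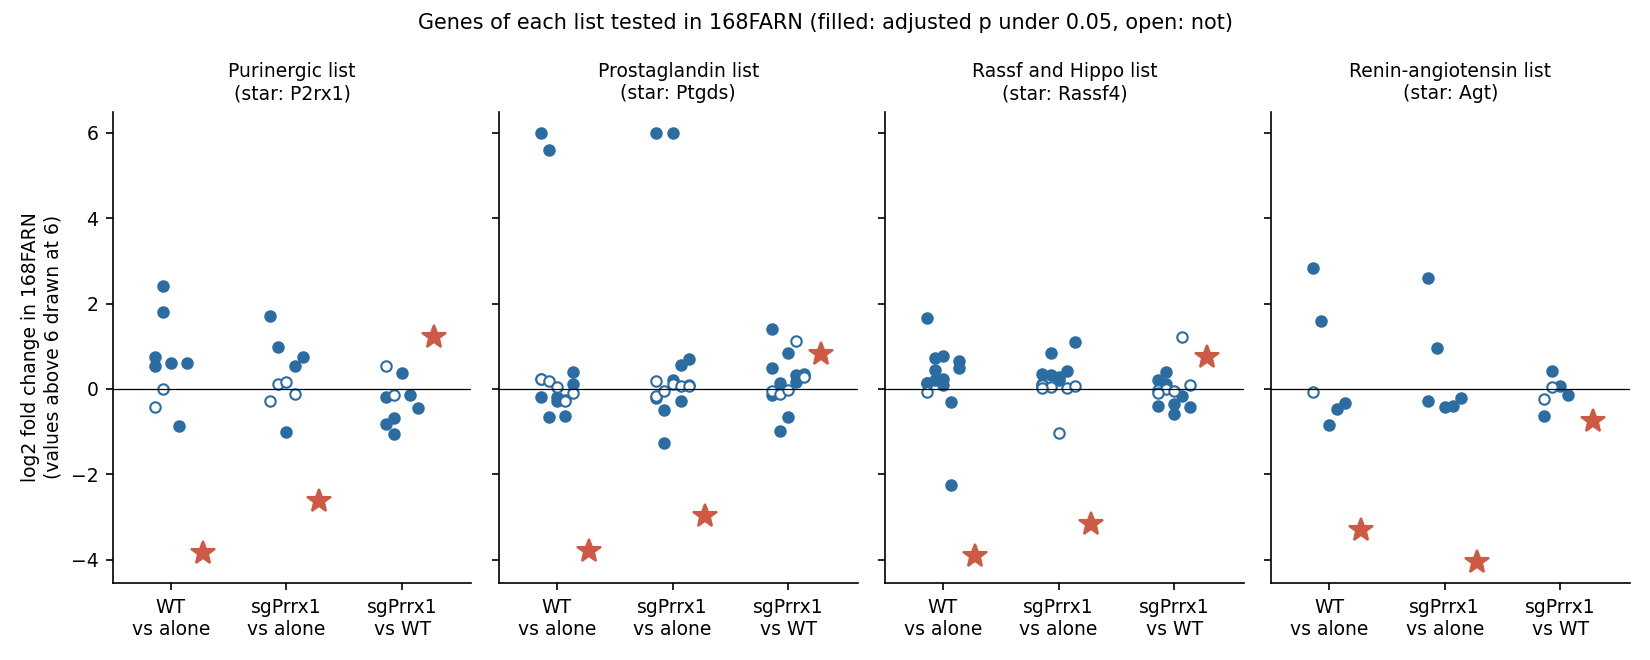
Log2 fold change in 168FARN of the tested genes of each pathway list (circles, filled where the adjusted p in edgeR is under 0.05) and of P2rx1, Ptgds, Rassf4 or Agt (star) in 3 comparisons, with values above 6 drawn at 6. In the columns against cells alone each star lies below every circle of its list, and in the column of sgPrrx1 against WT the stars of P2rx1 and Agt lie just outside the range of their circles and those of Ptgds and Rassf4 inside it.

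Genes of the same lists passed in LLC1 too, where edgeR called 4.25% of all genes tested higher and 4.58% lower with WT fibroblasts than alone, and 2.01% and 2.31% with sgPrrx1 fibroblasts. With WT fibroblasts 2 of 9 purinergic genes rose and 1 fell, 2 of 13 prostaglandin genes rose, 1 of 5 renin-angiotensin genes rose and 1 of 14 Rassf and Hippo genes fell. With sgPrrx1 fibroblasts 1 purinergic gene rose and 1 fell, 1 renin-angiotensin gene rose and 1 Rassf and Hippo gene fell. The prostaglandin genes were Ptges3, which rose by 0.35 (SE 0.0896), and Ptgis, at 0 in every library alone and averaging 1.18 CPM with WT fibroblasts, and neither passed with sgPrrx1 fibroblasts. In edgeR Anpep rose in WT coculture by 0.67 (SE 0.0996) and in sgPrrx1 coculture by 0.80 (SE 0.0997), and P2ry6 rose by 1.58 (SE 0.273) and 1.40 (SE 0.273), both as in 168FARN. P2rx3 fell by 0.85 (SE 0.177) and by 1.61 (SE 0.182) and Rassf2 by 1.04 (SE 0.205) and by 1.15 (SE 0.205), the opposite signs to 168FARN, differences between lines that were not tested. Ptgs2 averaged 1180, 1101 and 893 CPM in LLC1 alone, WT and sgPrrx1 coculture, and LLC1 sgPrrx1 replicate 3 was its lowest library at 493 CPM.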

How the data were processed

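Bulk RNA of 18 sorted cancer cell samples was sequenced from TruSeq RNA libraries. According to the study's methods and the submitters' processing notes, the authors trimmed reads with Trimmomatic, aligned them to mm10 with STAR and counted them per gene with HTSeq, and the deposited values are raw counts per gene and sample, 1 table per cancer line. The strand setting of the counting is not given in the sources used here. The study's methods report batch correction with ComBat-seq in a section on mouse fibroblasts and human cancer-associated fibroblasts. Whether it was applied to these tables is not given.

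Labels gave each sample its line and number, and the 2 coculture groups by WT or SG in the title. Titles of the remaining libraries carry neither mark, and these were read as cells alone although their titles begin with the word coculture. Counts were filtered with filterByExpr, scaled by TMM and fitted with edgeR 4.0.16 (quasi-likelihood test, R 4.3.3) on the 9 libraries of each line, with p values adjusted by Benjamini-Hochberg over all genes tested and a threshold of 0.05. The filter kept 13540 genes in 168FARN and 12873 in LLC1, with 4 and 2 of the 4 genes respectively. The test was checked on simulated counts, with changes set in genes above a mean of 100 counts. That check did not cover the LLC1 values of the 4 genes, which reached at most 48 counts in a library. DESeq2 1.42.0, limma 3.58.1 (voom with sample quality weights), other scalings and filters, a replicate block and leaving out each library were the alternatives.

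The 4 genes and the gene lists were chosen with earlier results of these data known. Named beside them were the direct partners in each pathway, the strongest changes of each list, the 3 genes nearest in pattern, those directly before and after each gene in the order of falls, and the 2 nearest tested genes on each side. Fap, Thy1, Lum, Postn, Col1a1, Col3a1, Dcn, Fbln2, Cd68, Csf1r, Cd14, Lyz2, Ptges3, Ptgis, Cdh5, Emcn, Cldn5, Ptprc, Fmo1, Selenbp1, Krt8, Cldn7, Epcam, Krt19 and Depp1 were named after their values were seen. Promoter sequences came from RefSeq (GRCm38.p6), where 99.4% of the symbols in each table were found and all 4 genes matched. Levels were not compared between genes, since counts were not scaled to gene length.

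Same-numbered libraries were checked for pairing by the correlation of their deviations from group means. In 168FARN these ran from -0.0734 to 0.0627 and did not pair the libraries. In LLC1 they were 0.131 to 0.419 between cells alone and sgPrrx1 coculture, which paired these groups, and not all above 0.1 for the other pairs. No 2 libraries of a group agreed within sampling noise (chi-square per degree of freedom of at least 10.4). By edgeR's common dispersion, replicates varied with a coefficient of 0.0728 (168FARN) and 0.228 (LLC1).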

Additional observations from a re-analysis of the deposited data

Results flagged for a closer look

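For Agt, the effect of sgPrrx1 against WT fibroblasts differed between the lines by -2.23 on the log2 scale (168FARN minus LLC1, SE 0.680, adjusted p of 0.0310 in edgeR's quasi-likelihood test). A difference is given only for genes past the low-count filter in LLC1, which Agt met only with its sgPrrx1 libraries. Giving it is therefore not independent of the rise in them, and the 168FARN libraries in the fit took part in the choice of the genes. For P2rx1 no such difference is given, since all LLC1 libraries together held 5 counts of it, in 1 WT library, and it did not pass the filter there. Agt also moved in opposite directions against cells alone with sgPrrx1 fibroblasts, at 3.28 on the log2 scale in LLC1, where each of the 3 libraries lay above those of cells alone, and below them in 168FARN. That difference was not tested, and the LLC1 value did not pass (adjusted p of 0.101 in edgeR). In the same comparison the groups did not overlap for 32.4% of all genes in LLC1 and for 59.4% in 168FARN.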

How the results depend on the processing

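In 168FARN the falls of the 4 genes kept their direction under every alternative run, from -4.23 to -3.19 with WT and from -4.22 to -2.60 with sgPrrx1 fibroblasts on the log2 scale. For sgPrrx1 against WT, P2rx1 (1.16 to 1.25), Ptgds (0.77 to 0.87) and Agt (-0.92 to -0.62) passed in all 17 alternatives, and Rassf4 (0.42 to 1.07, adjusted p of 0.00121 to 0.0787) in 11. Requiring a log2 fold change of at least 1 left 1 of the 4 genes, P2rx1, and 1378, 981 and 838 genes in all for WT against alone, sgPrrx1 against alone and sgPrrx1 against WT, from 8676, 6735 and 8130. The replicate block gave 8553, 6654 and 8044 genes, kept all 4 calls in 168FARN, and changed no other call of the 4 genes in either line.

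LLC1 calls moved far more. From 1137, 556 and 7 genes in the same 3 comparisons, DESeq2 gave 2276, 1944 and 501, voom with quality weights 7549, 6183 and 4681, and a fit of only the 2 groups compared 5167, 27 and 11. A log2 fold change of at least 1 left 330 and 119 for the first 2 comparisons, the replicate block gave 1028, 381 and 2, and at least 10 counts in every library gave 2 for the last. Leaving out 1 library gave 273 to 5779, 52 to 3495 and 3 to 745, the highest values without LLC1 sgPrrx1 replicate 3, without which the line difference counted 6514 genes against 2772. The number of the 4 genes passing for sgPrrx1 against alone was 1, Agt, with DESeq2, with voom and without LLC1 WT replicate 2, and leaving out 1 library gave 0 to 1. Agt there had an adjusted p of 0.0128 to 0.318 over its alternatives. Ptgds turned direction for sgPrrx1 against WT with voom (-0.14) and without LLC1 WT replicate 2 (-0.047), within a range of -0.047 to 1.08 over left-out libraries, and its line difference did so without LLC1 sgPrrx1 replicate 3 (-0.18). By Pearson correlation, 0 of the 3 nearest genes were shared for each of the 4 genes. The line difference counted 2 of the 4 genes, Agt and P2rx1, though P2rx1 had not passed the filter in LLC1, and 1 (2491 genes in all) without LLC1 WT replicate 2, a setting chosen after seeing the data. The cause of these changes was not tested. Low counts limit every LLC1 value of the 4 genes, the highest being 48 counts in a library.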
